A study of Mus musculus with 8 samples.

Results

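Heme oxygenase 1 (Hmox1) and 9 further genes of heme breakdown and iron handling were described in the embryonic mouse brain cortex. They were Hmox2, the biliverdin reductases Blvra and Blvrb, the ferritin subunits Fth1 and Ftl1, the iron exporter Slc40a1, transferrin (Trf), its receptor Tfrc and the iron importer Slc11a2. These are 10 of 19938 genes measured. Each of the 10 symbols was matched to 1 probe set that the platform annotation gives to that gene alone. Hmox1 was chosen because it stood apart between the groups in these same arrays, and the other 9 genes were listed beside it for their function. The group differences of all 10 genes are therefore given as a description, with no test.

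Heme oxygenases cut heme into biliverdin, carbon monoxide and ferrous iron, and biliverdin reductases turn biliverdin into bilirubin. The iron set free is stored in ferritin or leaves the cell through ferroportin, the product of Slc40a1, while transferrin and its receptor bring iron in. Hmox1 is the inducible form, raised by heme, oxidants and hypoxia and, in the brain, by blood outside vessels, whereas Hmox2 is the constitutive form of neurons. The transcription factor NRF2 (Nfe2l2) activates Hmox1, and BACH1 represses it until heme binds BACH1.

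Expression was measured on 8 Affymetrix whole-transcript arrays of cortex RNA from embryonic day 16, all on a mixed strain background. The 4 control arrays are labelled wild type, which the labels describe as lacking TetO-VEGF-A164, without saying whether GFAP-tTA was carried. The 4 VEGF-labelled arrays come from GFAP-tTA: TetO-VEGF-A164 bitransgenic embryos, in which the Gfap promoter, active in the glial lineage, drives the transactivator of a VEGF-A transgene. Nothing in the labels says whether an array holds 1 embryo or a pool, or whether litters were shared within a group, so the spread between arrays may be partly technical. Values are on a log scale read as log2 and are centred on each probe set's median over the 8 arrays. They hold differences between arrays and no absolute level, so genes cannot be ranked by abundance and markers cannot be read as present or absent, those of the cortex included. Vegfa, the gene of the transgene, differed by 0.053 with an SE of 0.0506, and its groups overlapped. That value rests on 1 probe set, and whether it reads the transgene was not examined.

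Hmox1 was higher in every VEGF-labelled array than in any control array. The control arrays held -0.48, -0.20, -0.30 and -0.27 (control 1 to control 4), and the VEGF-labelled arrays held 0.35, 0.39, 0.57 and 0.20 (VEGF 1 to VEGF 4). A gap of 0.39 separated control 2, the highest control array, from VEGF 4, the lowest of the other group. The group means were -0.31 ± 0.12 and 0.37 ± 0.15 (SD, n = 4 each), and the difference was 0.68 with a moderated SE of 0.0837, which is 1.61-fold if the base is 2. By size of difference Hmox1 stood 13th from the top among all genes, with rank 1 the largest upward difference.

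Of the 10 genes, 1 separated the groups without overlap and 9 did not. Over all genes the groups did not overlap in 6.84%, with 2.13% higher and 4.71% lower in the VEGF-labelled arrays, and nothing is read from the members' share because Hmox1 was chosen on this contrast. By sign of the difference alone 43.3% of all genes were higher, which is the background for the counts of higher and lower genes below. In the fit across all genes (limma with Benjamini-Hochberg adjustment), 0% of genes passed the threshold of 0.05, the smallest adjusted p being 0.219, while 2484 genes had an unadjusted p under 0.05. None of the 10 genes thus passed in the fit of all 8 arrays. Without VEGF 4 the difference of Hmox1 was 0.74. Its adjusted p in limma was then 0.0347, and it ranged from 0.0347 to 0.616 over all alternatives, which describes the fits and is no test of a gene chosen on the same values.

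**Figure D1:**
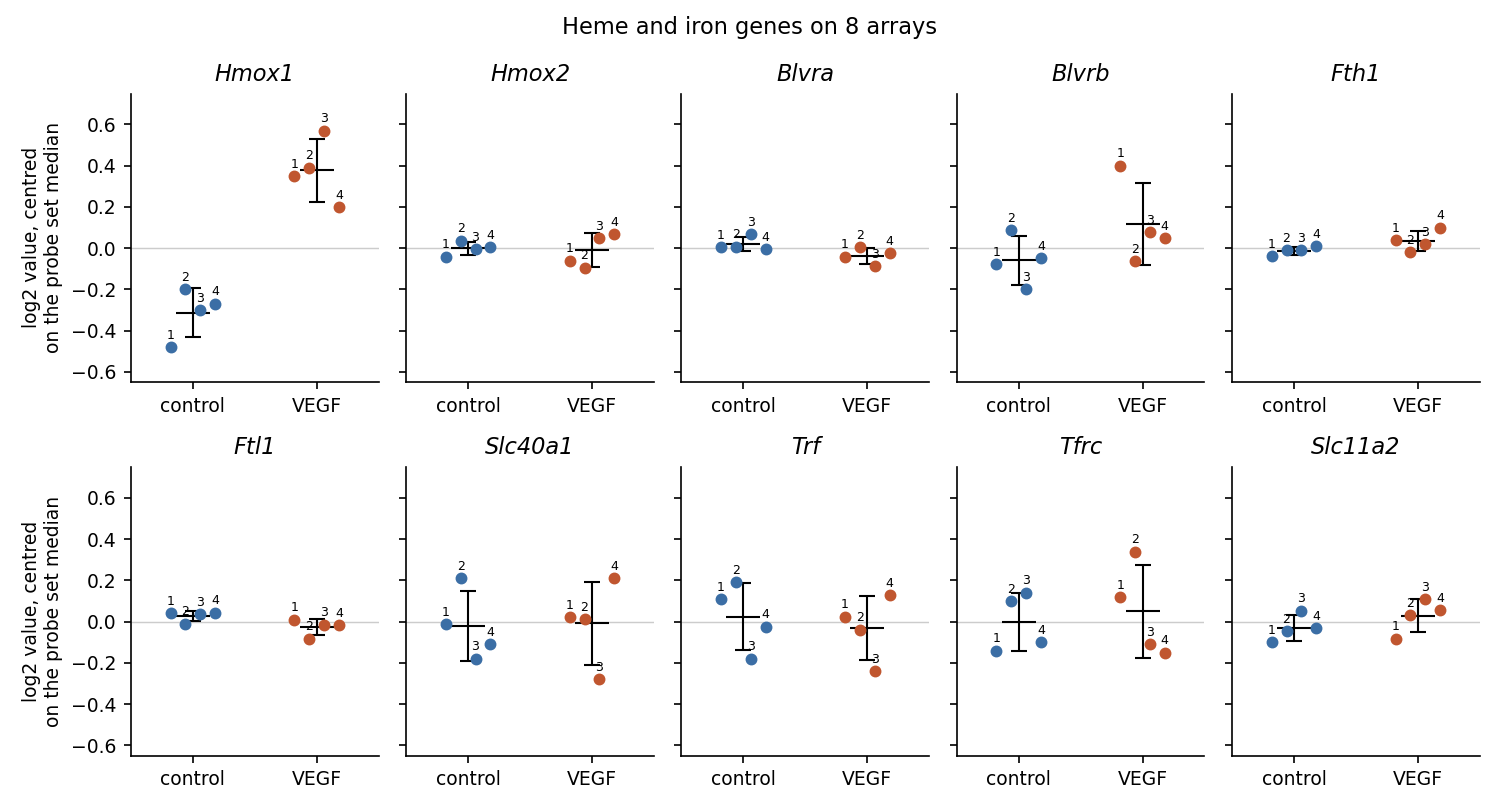
Centred log2 value (vertical axis) of each of the 10 genes in the 4 control and 4 VEGF-labelled arrays. Points are arrays, numbered by replicate, and black bars are the mean and SD of a group. Hmox1 runs from -0.48 to -0.20 in control and from 0.20 to 0.57 in the VEGF-labelled arrays, while in the other 9 genes the groups overlap.

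The constitutive oxygenase Hmox2 did not follow Hmox1. Its values were -0.041, 0.036, -0.0041 and 0.0041 in control and -0.060, -0.094, 0.049 and 0.069 in the VEGF-labelled arrays. The latter lay on both sides of the control arrays, with VEGF 1 and VEGF 2 lowest and VEGF 3 and VEGF 4 highest of all 8. The difference was -0.0076 with an SE of 0.0449. The whole span of Hmox2 over the arrays was 0.16, against 1.04 for Hmox1.

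Blvra and Blvrb, which reduce biliverdin, overlapped between the groups. Blvra held 0.0039, 0.0064, 0.068 and -0.0039 in control and -0.041, 0.0039, -0.087 and -0.025 in the VEGF-labelled arrays, so that 3 of the 4 latter arrays lay below all controls and VEGF 2 lay among them. Its difference was -0.056 with an SE of 0.0349. Blvrb, which is also the flavin reductase of red cells, held -0.079, 0.088, -0.20 and -0.047 in control and 0.40, -0.062, 0.076 and 0.047 in the VEGF-labelled arrays. VEGF 1 stood above all other arrays and VEGF 2 lay below 2 controls. The difference of Blvrb was 0.18 with an SE of 0.0985, and it was 0.080 without VEGF 1.

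Both ferritin subunits stayed within a narrow band. Fth1, the heavy chain with the ferroxidase site, held -0.038, -0.0086, -0.011 and 0.0086 in control and 0.038, -0.018, 0.019 and 0.10 in the VEGF-labelled arrays, a difference of 0.047 with an SE of 0.0353. Ftl1, the light chain, held 0.042, -0.0098, 0.037 and 0.044 in control and 0.0098, -0.082, -0.014 and -0.016 in the VEGF-labelled arrays, a difference of -0.054 with an SE of 0.0341. Fth1 was kept from separating by VEGF 2, which lay among the controls, and Ftl1 by control 2 and VEGF 1, which crossed. The Ftl1 value rests on 1 probe set, since 4 other probe sets list Ftl1 together with other genes and were left out, and ferritin genes have near-identical copies in the genome that probes may also read. Ferritin is controlled mainly at translation by iron regulatory proteins, which a measurement of mRNA does not read.

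Of the transport genes, Slc40a1, Trf and Tfrc varied widely between arrays of the same group, and Slc11a2 varied less. Slc40a1 held -0.013, 0.21, -0.18 and -0.11 in control and 0.021, 0.013, -0.28 and 0.21 in the VEGF-labelled arrays, and its difference was 0.013 with an SE of 0.111. Trf held 0.11, 0.19, -0.18 and -0.024 in control and 0.024, -0.039, -0.24 and 0.13 in the VEGF-labelled arrays, a difference of -0.055 with an SE of 0.0951. In both genes control 3 and VEGF 3 were the lowest arrays of their group, and control 2 and VEGF 4 the highest. The receptor Tfrc ran otherwise, with -0.14, 0.10, 0.14 and -0.10 in control and 0.12, 0.34, -0.11 and -0.15 in the VEGF-labelled arrays. VEGF 1 and VEGF 2 thus stood with control 2 and control 3, and the other 4 arrays were low, for a difference of 0.050 with an SE of 0.111. Slc11a2, the divalent metal transporter of the endosome, held -0.10, -0.047, 0.054 and -0.031 in control and -0.082, 0.031, 0.11 and 0.055 in the VEGF-labelled arrays, a difference of 0.060 with an SE of 0.0506.

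**Figure D2:**
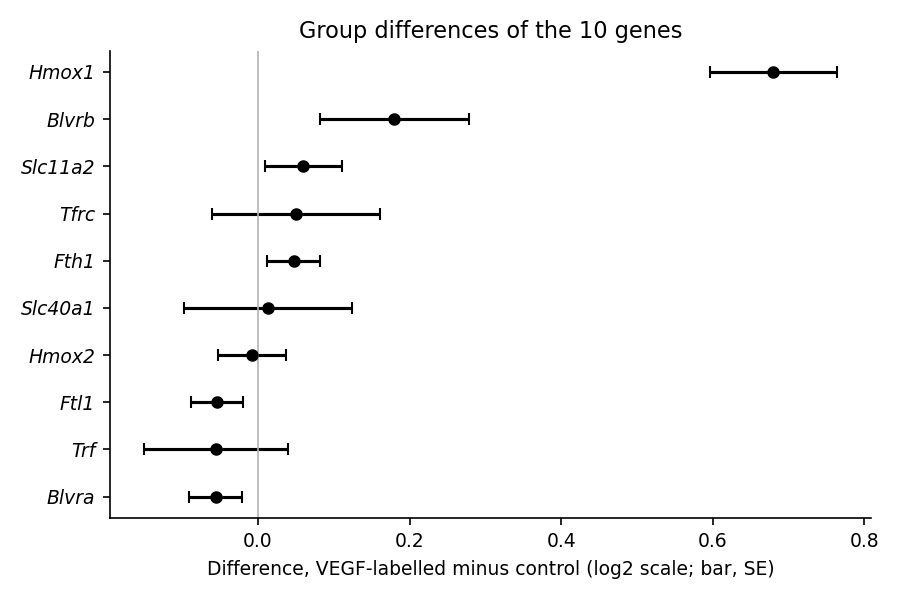
Difference between group means (horizontal axis, VEGF-labelled minus control, log2 scale) of the 10 genes, with the moderated SE of the fit as bars. Hmox1 lies at 0.68 and Blvrb at 0.18, and the other 8 genes lie between -0.056 and 0.060.

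The residual SD within groups split the 10 genes. For Hmox1 it is not independent of the choice, since standing apart between groups depends on the spread within them. Slc40a1 and Tfrc had residual SDs of 0.187 each, above those of 94.8% of genes, and Blvrb (0.165), Trf (0.158) and Hmox1 (0.137) lay at the 92.5th, 91.7th and 87.4th percentiles. Ftl1 (0.0334), Blvra (0.0357) and Fth1 (0.037) lay at the 7.6th, 9.5th and 10.4th percentiles, with Hmox2 (0.0608) and Slc11a2 (0.0733) between. The small differences of ferritin and Blvra therefore had smaller SEs than those of Slc40a1, Trf and Tfrc, for which a difference of the size of Blvrb's lies within 2 SE.

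Genes that control Hmox1 transcription were examined as a list of 9, of which 8 were measured. None of the 8 passed in limma, and the groups did not overlap in 4, 1 higher and 3 lower, against 6.84% of all genes. This list and those below were chosen with earlier results of these data known, so nothing is read from such shares. The median difference of the list was -0.030, beside -0.010 over all genes. Nfe2l2, the activator, held -0.21, -0.066, -0.027 and -0.071 in control and 0.027, 0.26, 0.29 and 0.17 in the VEGF-labelled arrays, a difference of 0.28 with an SE of 0.0647. VEGF 1 was close to control 3, and the other 3 VEGF-labelled arrays stood clear of all controls.

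Of the 5 measured regulators with lower means, Bach1, Keap1 and Nr1d1 did not overlap, and Maff and Mafk did. Bach1, the heme-binding repressor of Hmox1, held 0.070, 0.018, 0.0015 and 0.081 in control and -0.057, -0.16, -0.26 and -0.0015 in the VEGF-labelled arrays, a difference of -0.16 with an SE of 0.0562. Control 3 and VEGF 4 almost met, so that its separation rests on a very small gap. Keap1, the adaptor that sends NRF2 to degradation, differed by -0.10 with an SE of 0.038, and it was singled out after its values were seen. The heme-binding nuclear receptor Nr1d1 differed by -0.21 with an SE of 0.0454. The small Maf genes Maff and Mafk differed by -0.018 and -0.041, and Mafg and the hypoxia factor Hif1a, which also overlapped, by 0.0044 and 0.024.

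**Figure D3:**
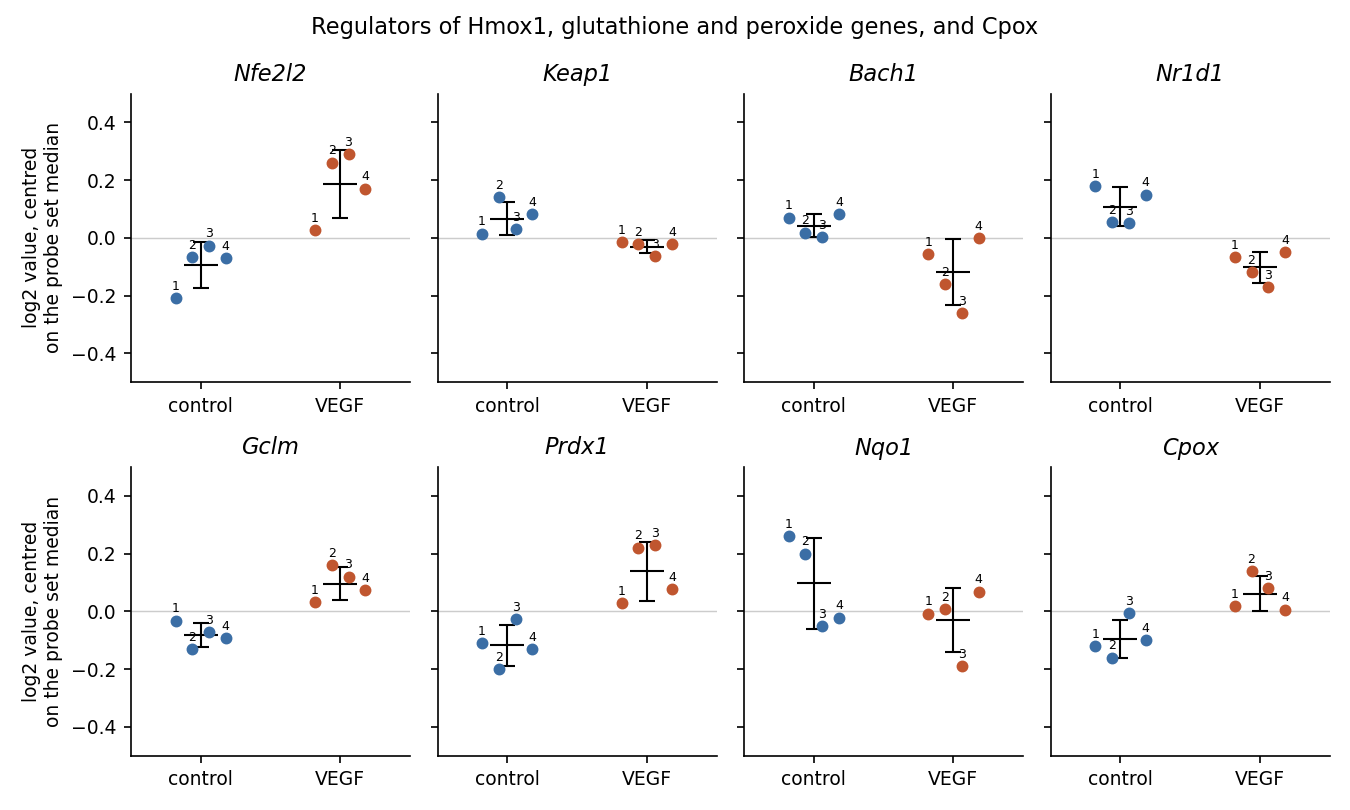
Centred log2 value (vertical axis) of 8 genes in the 4 control and 4 VEGF-labelled arrays, with points for arrays numbered by replicate and black bars for mean and SD. Nfe2l2, Gclm, Prdx1 and Cpox lie higher and Keap1, Bach1 and Nr1d1 lower in all VEGF-labelled arrays, and Nqo1 overlaps.

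Of 14 further genes that NRF2 is known to activate, 13 were measured, 8 of them higher and 5 lower, and none passed in limma. The groups did not overlap in 2, both higher, against 6.84% of all genes in either direction and 2.13% in the higher one. These were Prdx1, a peroxiredoxin that also binds heme, at 0.26 (SE 0.0576), and Gclm, the modifier subunit of the enzyme that limits glutathione synthesis, at 0.18 (SE 0.0398). Nqo1, a quinone reductase often used as a readout of NRF2, went the other way at -0.13 (SE 0.0833) with overlapping groups. The list thus held members on both sides, with a median of 0.024, the highest being Prdx1 and the lowest the glutathione transferase Gsta4 at -0.55 (SE 0.231). In the heat shock list, since heat shock factors also act on Hmox1, 7 of 8 genes were measured. The chaperone Hsph1 alone did not overlap, at 0.24 (SE 0.0559), against 6.84% of all genes.

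Short promoter sequences are shown for the genes in which the core letters of the antioxidant response element, to which NRF2 and BACH1 bind with small Maf proteins, were found. The core searched was TGACNNNGC on both strands over the 250 bases before each start site in the RefSeq promoter table of GRCm38.p6. The core can overlap the AP-1 site TGACTCA. The core was held by 10.2% of the 32851 promoters listed there. Of the 10 genes, 6 were matched with 11 start sites (Hmox2, Blvra, Blvrb, Fth1, Ftl1 and Tfrc), and 1 of the 11 start sites held it, that of Blvra. Hmox1, Slc40a1, Trf and Slc11a2 were not matched in that table and were not searched. Among the related genes searched it was found in Nfe2l2, Gclm and Prdx1, and not in the windows of Bach1, Keap1 and Nqo1. These genes were picked with their group differences known, Gclm and Prdx1 having been named for groups that did not overlap. Of the NRF2 target list only Gclm, Prdx1 and Nqo1 were searched, so nothing is read from which genes held the core. Capitals mark the core, and each line is written 5′ to 3′ on the strand that carries it, which is the minus strand in all 4.
Blvra, chr2:127070593-127070631, core 49 to 41 bases before the start: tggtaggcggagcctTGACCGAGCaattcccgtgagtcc
Nfe2l2, chr2:75704880-75704913, core 240 to 232 bases before the start: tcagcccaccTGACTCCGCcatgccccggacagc
Gclm, chr3:122245408-122245446, core 134 to 126 bases before the start: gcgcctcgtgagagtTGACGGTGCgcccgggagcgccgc
Prdx1, chr4:116685451-116685489, core 133 to 125 bases before the start: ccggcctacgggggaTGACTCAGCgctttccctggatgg
Blvra, whose promoter carried the core, differed by -0.056, while Nfe2l2, Gclm and Prdx1 differed by 0.28, 0.18 and 0.26. A match is a run of letters and not a measured binding site.

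Heme synthesis, the pathway opposite to that of Hmox1, was measured with 9 of 10 genes, 3 higher and 6 lower, and none passed in limma. The groups did not overlap in 2 of the 9, 1 in each direction, against 6.84% of all genes. Cpox, the coproporphyrinogen oxidase, differed by 0.16 (SE 0.0459), and Slc25a38, the mitochondrial glycine carrier, by -0.086 (SE 0.0381) with VEGF 4 and control 4 almost touching. Alas1, which limits heme synthesis outside red cells and is repressed by heme, differed by -0.020 (SE 0.0456). Fech, which inserts the iron into heme, differed by 0.23 (SE 0.12), with VEGF 1 at 0.62 and VEGF 4 at -0.034.

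All 12 genes of heme transport and scavenging overlapped between the groups, and their median difference was -0.0019. Cd163, the macrophage receptor that takes up hemoglobin bound to haptoglobin, differed by -0.015 (SE 0.0395), and hemopexin (Hpx), which carries heme in plasma, by 0.013 (SE 0.0422). The widest differences on this list were those of the heme exporter Flvcr1 at 0.13 and of Flvcr2 at -0.19.

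Among 15 genes of iron transport and oxidation, 2 did not overlap, 1 in each direction, against 6.84% of all genes, and none of the 15 passed in limma. Slc25a37, mitoferrin 1 of developing red cells, held -0.10, -0.017, -0.044 and -0.18 in control and 1.37, 0.28, 0.47 and 0.017 in the VEGF-labelled arrays, a difference of 0.62 with an SE of 0.242. VEGF 1 stood far above the other arrays, and without it the difference was 0.34. Its counterpart of other cells, mitoferrin 2 (Slc25a28), differed by -0.092 (SE 0.0386). The copper ferroxidase Cp, which works with ferroportin, held between -0.073 and 0.41 in control and between -0.24 and 0.45 in the VEGF-labelled arrays, a difference of 0.035 (SE 0.161).

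Both iron regulatory proteins, sensors of cellular iron, overlapped between the groups. Aco1 and Ireb2, whose products bind ferritin and transferrin receptor mRNA, differed by -0.051 (SE 0.0343) and 0.067 (SE 0.0558). Of the 14 measured genes of iron sensing, 2 did not overlap, against 6.84% of all genes, the coreceptor Neo1 at -0.12 (SE 0.0388) and the iron chaperone Pcbp1 at 0.055 (SE 0.0324). None of the 14 passed in limma.

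Red cell genes varied alongside part of these results. Of 20 erythroid markers 14 were measured, 12 of them higher, with a median difference of 0.14, and their groups overlapped in all 14. Without VEGF 1 the erythroid median was 0.068. The mean of the list lay between -0.13 and 0.012 in control and between -0.0086 and 0.52 in the VEGF-labelled arrays. VEGF 1 was the highest, followed by VEGF 3 at 0.20, and VEGF 2 and VEGF 4 stood near the controls. Alas2, the heme synthesis enzyme of red cells, differed by 0.83 (SE 0.276), or 0.54 without VEGF 1, and the embryonic globin Hbb-y by 0.44 (SE 0.165). When the mean of the erythroid list entered the fit as a covariate, the difference of Blvrb was -0.0080 and that of Slc25a37 was 0.10, while that of Hmox1 was 0.62. That covariate was itself highest in VEGF 1 and VEGF 3, so the fit cannot cleanly part it from the group. The part of red cells in these differences was not tested. More red cells and more of these transcripts per cell cannot be told apart in whole tissue.

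Macrophages clear red cells and are a known site of Hmox1, Slc40a1 and Blvrb. Of 12 macrophage markers 6 were higher and 6 lower, and the list mean lay between -0.13 and 0.047 in control and between -0.16 and 0.11 in the VEGF-labelled arrays. Of the 12, only the lysozyme Lyz2, at 0.44 (SE 0.0648), and Ms4a7, at 0.18 (SE 0.0407), did not overlap between the groups, against 6.84% of all genes. Of 14 measured microglia markers 8 were higher. Their list mean lay between -0.10 and 0.068 in control and between -0.057 and 0.10 in the VEGF-labelled arrays. Aif1 differed by 0.12 (SE 0.07). The purinergic receptor P2ry12 alone did not overlap, at -0.28 (SE 0.0853), against 6.84% of all genes. With the macrophage list mean as a covariate the difference of Hmox1 was 0.70.

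Slc40a1 and Trf shared their lowest arrays with endothelial, meningeal and macrophage genes, though no relation passed after adjustment. The endothelial list (11 of 12 genes measured) had its lowest means in control 3 at -0.19 and VEGF 3 at -0.28, as did the list of meninges and fibroblasts at -0.25 and -0.44 and the macrophage list at -0.13 and -0.16. Control 3 and VEGF 3 were also lowest in their groups for oligodendrocyte lineage (-0.09 and -0.33) and NRF2 target (-0.053 and -0.066) genes. The same held for heme transport and scavenging (-0.017 and -0.085) and iron sensing (-0.02 and -0.061), though not for choroid plexus genes. The pattern was thus not particular to the cell types named, and these further lists were not among the relations below. After group means were removed, Slc40a1 correlated with the macrophage list mean at Pearson's r = 0.945 (two-sided p = 0.0035 by exact permutation within groups, adjusted p = 0.21). Spearman's rho was 0.833 (p = 0.021 by the same exact test, adjusted p = 0.29), and leaving out VEGF 3 and VEGF 4 gave an r of 0.861. Trf correlated with the same list at r = 0.902 (p = 0.0069 by the exact test, adjusted p = 0.21) and rho = 0.833 (p = 0.010 by the exact test, adjusted p = 0.29), with an r of 0.822 once the same arrays were left out. With the endothelial list r was 0.854 for Slc40a1 and 0.894 for Trf (exact p = 0.021 and 0.014, adjusted p = 0.24 each) and rho was 0.881 and 0.833 (exact p = 0.019 and 0.024, adjusted p = 0.29 each). With the list of meninges and fibroblasts r was 0.854 and 0.826 (exact p = 0.024 each, adjusted p = 0.24 each) and rho was 0.833 and 0.643 (exact p = 0.043 and 0.097, adjusted p = 0.42 and 0.73). Leaving out control 3 and VEGF 3 brought the endothelial r to 0.684 for Slc40a1 and 0.498 for Trf and the meningeal r to 0.544 and 0.231, so these relations rest largely on those arrays. The macrophage relations were not recomputed without control 3, so their r after omission cannot be set against these. The macrophage relations had the smallest p-values of r among 60 relations, 10 genes against 6 cell type lists, which were added after the data were seen, the smallest p that 576 arrangements allow being 0.0017.

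For Hmox1 the coefficients were smaller in size. With the erythroid list its r was 0.336 (p = 0.53 by the exact test, adjusted p = 0.95) and its rho 0.476 (exact p = 0.32, adjusted p = 0.94). With the macrophage list its r was -0.567 (exact p = 0.20, adjusted p = 0.88) and its rho -0.381 (exact p = 0.45, adjusted p = 0.94). Leaving out VEGF 1 and VEGF 4 gave an erythroid r of 0.942, and leaving out VEGF 3 and VEGF 4 a macrophage r of 0.158, so both values depend on those arrays. With the endothelial and meningeal lists the r of Hmox1 was -0.476 and -0.434, and 0.266 and 0.582 without control 3 and VEGF 3. With the microglia and choroid plexus lists it was -0.146 and 0.170.

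**Figure D4:**
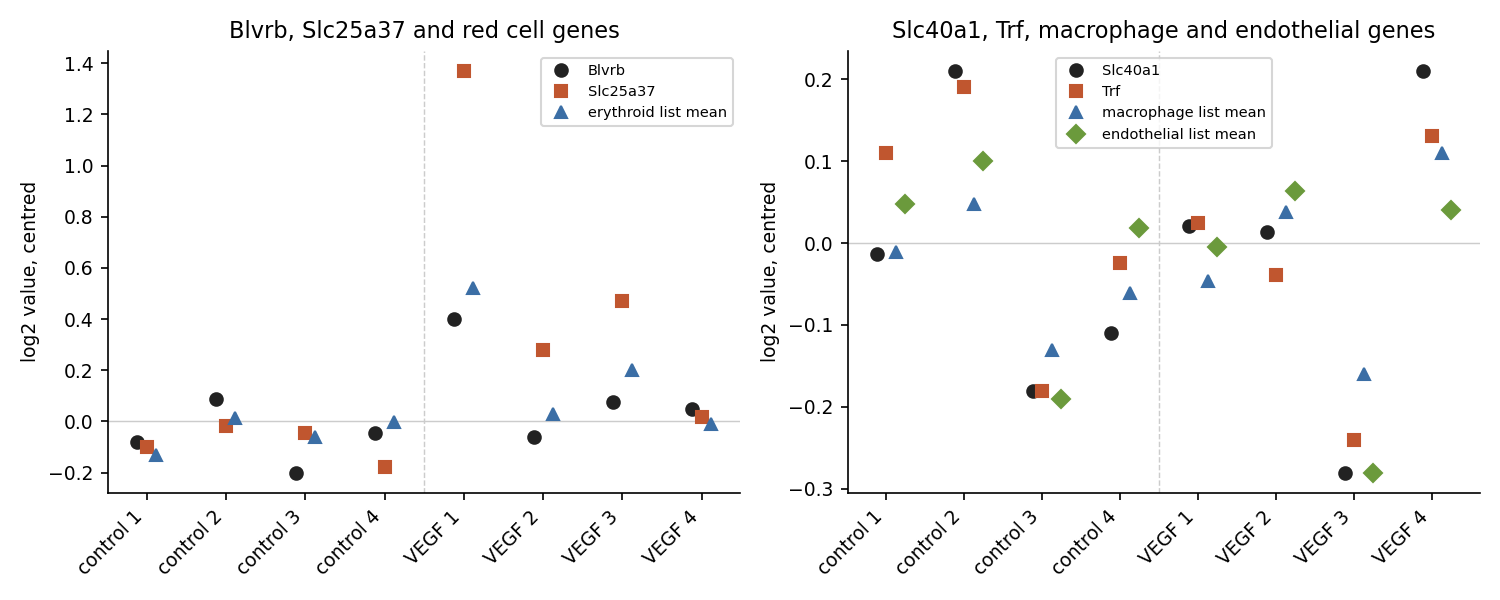
Centred log2 value (vertical axis) on each of the 8 arrays (horizontal axis, dashed line between the groups). On the left Blvrb and Slc25a37 are set beside the mean of the erythroid list, and all 3 are highest in VEGF 1, at 0.40, 1.37 and 0.52. On the right Slc40a1 and Trf are set beside the means of the macrophage and endothelial lists, and all 4 are lowest in control 3 and VEGF 3 within their group.

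Other tissue lists were compared as well. Of all genes 43.3% were higher in the VEGF-labelled arrays. Of 9 choroid plexus genes 8 were lower, with Ttr at -0.068 (SE 0.0841), and all 9 overlapped. Otx2 alone was higher, at 0.40 (SE 0.288), the largest difference of that list. In the oligodendrocyte lineage all 6 genes were lower and Gpr17 alone did not overlap, at -0.12 (SE 0.0417), against 6.84% of all genes. Of 6 measured cortical neuron genes 5 were lower, with a median of -0.33. Among them Bcl11b alone did not overlap, at -0.48 (SE 0.126), against 6.84% of all genes. The mean of the cortical neuron list lay below the controls on 3 arrays, with -0.38 for VEGF 1 and -0.46 for VEGF 2, more narrowly so with -0.051 for VEGF 3, and was 0.081 for VEGF 4, whereas Hmox1 was highest on VEGF 3. The part of these lists in the values of the 10 genes was not tested.

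The genes most like Hmox1 over the 8 arrays, by Pearson's r of the values, were Hdlbp (0.978), Polk (0.976), Vegfc (0.964), Lrrc42 (0.959) and Ifrd2 (0.957). Their differences of 0.17, 0.26, 0.34, 0.18 and 0.19 had the sign of Hmox1, since likeness over all arrays is led by the group difference. After group means were removed the most similar genes were Wee2 (0.972), Hvcn1 (0.971), Nelfcd (0.961), Cmtm8 (0.957) and Eno3 (0.950), none of them in the first set, with differences between -0.039 and 0.047. Each r rests on 8 arrays and is the highest of nearly all genes, so it describes these arrays alone.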

How the data were processed

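The deposited table holds log2 values, judging by their range since the base is unstated, for 28853 probe sets on 8 arrays, each centred on its median to within 5e-07. Affymetrix Expression Console and the build mm8 appear in the submitters' processing notes, and the series text names an unpaired test in GeneSpring. No source used here describes the background correction or the summarisation. Centring leaves no signal over background, so dim probe sets could not be filtered. Array medians ran from -0.0091 to 0.0154 and interquartile ranges from 0.061 to 0.142.

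Probe sets with 1 gene symbol (21789) were brought up to date by Entrez identifier with the RefSeq table of GRCm38.p6 and averaged per gene. Those with several (1621) or no symbol (5443) were left out. All 19938 genes were fitted with limma 3.58.1 in R 4.3.3 without covariates, with Benjamini-Hochberg adjustment. Relations to cell type lists, added later, used exact permutation within groups. The fit was also run on simulated data with independent noise in each gene. These data held no patterns shared by genes across an array, so the run says nothing of such patterns here.

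The members and lists were chosen with earlier results of these data known. Named were the members, Vegfa, 14 preset genes, the 5 genes most like Hmox1 by each measure, and of each list up to 3 non-overlapping genes of largest difference. Fech, Flvcr1, Flvcr2, Hif1a, Keap1, Gsta4, Otx2 and the small Maf genes were named after their values were seen. Alternatives were a replicate block, other scalings and priors, array weights, covariates, the methods' t-test, 1 probe set per gene and leaving out arrays.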

Additional observations from a re-analysis of the deposited data

Results flagged for a closer look

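In 4 of the 78 groups of 4 arrays examined (39 named genes), 1 array lay far from the other 3, and chance alone gives about 1 in 20. Blvra was at 0.068 in control 3, against -0.0039 to 0.0064 in the other control arrays. Ftl1 was at -0.0098 in control 2, against 0.037 to 0.044. Alas1 was at -0.058 in control 4, against 0.023 to 0.024. Ireb2 was at 0.20 in VEGF 2, against -0.018 to 3.8e-05 in the other VEGF-labelled arrays.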

How the results depend on the processing

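Hmox1 kept its direction in all 19 alternatives, with differences from 0.62 to 0.74, and its groups did not overlap under any of the 12 scalings and omissions examined. The number of genes past the threshold was 0 in the fit of all arrays, 1 after quantile normalization (Lhx6, named after its value was seen), between 0 and 10 when 1 array was left out, and 2114 by the methods' t-test before adjustment against 0 after it. Leaving out 1 array gave 0.62 to 0.74 for Hmox1 and between 1 and 3 members without overlap, with Ftl1 lower beside Hmox1 without control 2 or without VEGF 1, and Blvra lower and Fth1 higher beside it without VEGF 2, while the share of all genes without overlap was then 8.32% to 13.7%. The difference of Blvrb moved to -0.0080 once the erythroid list mean was a covariate. Differences of Hmox2, Slc40a1, Trf, Tfrc and Blvrb took the opposite sign in 7, 4, 5, 1 and 1 of 19 alternatives, so no direction is read for them. Whether the replicate numbers pair the arrays cannot be told from so few correlations. Those of same-numbered deviations were 0.052, -0.130, 0.454 and 0.301, and 2 of 4 control arrays correlated best with their own number. With the replicate block 0 genes passed and Hmox1 was at 0.68. Without control 3 and VEGF 3, chosen after seeing the data, Hmox1 was at 0.62 and 0 genes passed. The number of arrays limits precision.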
